A study of Homo sapiens with 36 samples.

Results

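The zinc finger genes of chromosome 19 were taken as the protein-coding genes of GENCODE 44 on that chromosome whose symbol starts with ZNF followed by a digit. The rule gave 249 of 20046 protein-coding genes on GRCh38. They were compared with 266 ZNF genes of other chromosomes, with 1227 other protein-coding genes of chromosome 19, and with the 18304 protein-coding genes that remained. A PAR-CLIP cluster, a stretch of RNA in which crosslinked reads pile up, was counted for a gene when its midpoint lay in the gene body on the same strand. Of 278185 clusters in 18 lists, 3677 fell in the 249 genes, and 874 of these lay in more than 1 protein-coding gene. In shares and densities such a cluster was counted once, for a gene of the 249 before any other gene, and otherwise for the shortest gene. This rule favours the 249 genes over the gene sets compared with them. Where clusters are given gene by gene, such a cluster was counted for each gene it lay in.

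The lists come from Flp-In T-REx HEK293 cells, a human embryonic kidney line in which one copy of a transgene can be placed at a fixed site. SCAF4 and SCAF8 are RNA-binding proteins that contact the C-terminal domain of RNA polymerase II, and the study asked where along transcripts they crosslink. FLAG IPs, and inputs of 1% of the same extracts, were made in 3 replicates from cells with inducible FLAG-SCAF4, from cells with inducible FLAG-SCAF8, and from parental cells, whose IP is the control. No gene was edited by CRISPR in any of these cells. The 36 libraries of soluble and chromatin extracts were merged by the authors into 6 groups of 3 lists. All cells received 100 µM 4-thiouridine overnight, a 500 µM pulse for 2 h and 365 nm light at 2000 J/m2. The sample labels give 100 ng/mL doxycycline for the tagged lines and no dose for parental cells, whereas the study's methods name a higher dose and do not exempt the parental cells. Each tagged protein came from a transgene in 1 derived line, so an effect of the protein and a difference between cell lines cannot be told apart. The 6 IP lists of the tagged lines are called SCAF IP lists here, and own inputs are the 6 input lists of those lines.

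Most of these genes encode C2H2 zinc finger proteins with a KRAB domain, and they lie in tandem arrays that grew by repeated duplication. The KRAB domain, encoded in short early exons, recruits TRIM28 and the histone methyltransferase SETDB1, and the array of zinc fingers, encoded in a single long last exon, finds the DNA target, often a retrotransposon. Near-identical copies are frequent among them, so a short read from one may be placed on another.

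Among the exon classes compared, the exon that ends in the KRAB A box had the densest clusters, and the stretch of it under the site is shown here for 3 genes in which it had a cluster in every SCAF IP list and in no input list. Sequences were read from GRCh38 on the transcribed strand, 5′ to 3′. Capitals mark the letters that were chosen, after the sequences had been seen, to find this exon in other genes. They were searched on the transcribed strand only, with any base allowed at the fifth letter, and 93 of 482 coding stretches of early exons of at least 60 nt held them, or 19.3%. The first is exon 3 of 5 of ZNF225 on the plus strand at chr19:44118188-44118307, the next is exon 3 of 5 of ZNF235 on the minus strand at chr19:44299612-44299731, and the last is exon 2 of 5 of ZNF773 on the plus strand at chr19:57504657-57504765.
ZNF225: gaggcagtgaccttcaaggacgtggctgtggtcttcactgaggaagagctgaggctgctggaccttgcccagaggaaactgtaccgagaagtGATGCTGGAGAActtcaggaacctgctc
ZNF235: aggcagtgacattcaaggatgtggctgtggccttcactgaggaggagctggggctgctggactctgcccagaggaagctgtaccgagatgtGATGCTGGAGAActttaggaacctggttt
ZNF773: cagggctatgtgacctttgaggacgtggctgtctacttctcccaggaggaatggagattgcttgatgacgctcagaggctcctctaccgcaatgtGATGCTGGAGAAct

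Further sequences show the other kinds of site that carried clusters in all 6 SCAF IP lists. The ZNF529 site lies in exon 4 of 6, which is noncoding in the isoform used, on the minus strand at chr19:36554685-36554714, and the letters found by the same search are in capitals. The ZNF607 site lies in the 3′UTR part of exon 5 of 5, 1046 nt after the stop codon, on the minus strand at chr19:37696981-37697010, and it too holds a match. The ZNF223 site lies in the coding part of exon 5 of 5, on the plus strand at chr19:44066382-44066531. Its capitals mark the conserved linker between zinc fingers, searched on the transcribed strand with any base allowed at the third position of each codon.
ZNF529: actgggatgtGATGATGGAGAActacagca
ZNF607: ggctcgctttGATGCTGGAGAActaatcac
ZNF223: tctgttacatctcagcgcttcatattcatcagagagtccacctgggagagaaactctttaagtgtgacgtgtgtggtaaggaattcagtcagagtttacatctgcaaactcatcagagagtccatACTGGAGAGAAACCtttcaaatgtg

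The lists held between 1621 and 54404 clusters. Those of control IP replicates 2 and 3 were the shortest, with 2314 and 1621 clusters, of which 23 and 18 were in the 249 genes. How deeply each list was sequenced is unknown, and the 95% Clopper-Pearson intervals given here cover counting error only. A level is given as clusters per 10000 clusters of the list. The lists hold no reads, so more RNA of a gene and more crosslinking per RNA cannot be told apart.

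The share of clusters in the 249 genes overlapped between the SCAF IP lists and own inputs, and it was highest in the FLAG-SCAF8 line. In the SCAF4 IP lists 1.06% (95% interval 0.918 to 1.21), 1.09% and 0.951% of clusters were in these genes. In the SCAF8 IP lists the shares were 1.70% (1.54 to 1.87), 1.498% and 1.53%. The inputs gave 1.18%, 0.919% and 0.876% for the FLAG-SCAF4 line, 2.07%, 1.83% and 1.84% for the FLAG-SCAF8 line and 1.497%, 1.05% and 1.22% for the parental line. The control IP lists gave 1.16%, 0.994% and 1.11%. The SCAF8 input lists were all above the SCAF8 IP lists, which were all above the other 4 groups, and those 4 overlapped with each other. The mean over the 6 SCAF IP lists was 1.30% ± 0.309 (SD) and that over the inputs of the same lines was 1.45% ± 0.523, a difference that was within the spread of the lists (two-sided exact permutation test over lists, p = 0.552, adjusted p = 0.649 over 20 comparisons). The lists of the SCAF4 IP were lower than those of the SCAF8 IP by 0.543 percentage points on average, with no overlap (exact permutation test, two-sided, p = 0.1, the smallest that 3 against 3 lists allow, adjusted p = 0.185).

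**Figure D1:**
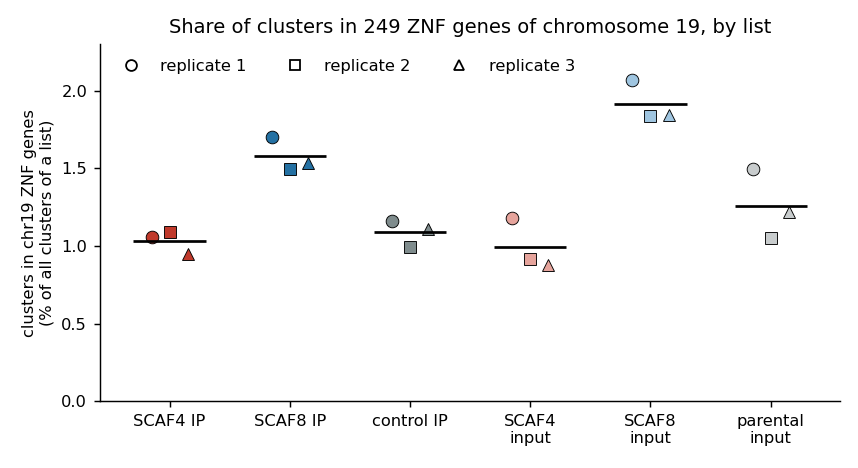
Percent of all clusters of a list (y axis) that lay in the 249 zinc finger genes of chromosome 19, for 6 groups of 3 lists, with symbols for replicates and a bar for the group mean. The 3 SCAF8 input lists, at 1.83 to 2.07%, lie highest, and the SCAF8 IP lists, at 1.498 to 1.70%, lie above every list of the other 4 groups.

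More of the 249 genes carried clusters in replicate IP lists than protein-coding genes at large. In at least 2 of 3 SCAF4 IP lists, 112 of the 249 genes (45.0%) had a cluster, against 36.5% of all protein-coding genes tested. In at least 2 of 3 SCAF8 IP lists the count was 117 (47.0%), against 31.4% of all genes, 33.1% of ZNF genes of other chromosomes and 33.2% of other genes of chromosome 19. For SCAF4 the ZNF genes of other chromosomes were at 47.4%. In the control IP 23 genes passed (9.24%, against 6.45% of all genes), in the SCAF4 input 29 (11.6% against 11.2%), in the SCAF8 input 53 (21.3% against 15.3%) and in the parental input 32 (12.9% against 10.7%). The SCAF4 and parental input shares lay close to those of all genes. No test was made of these counts, and longer lists reach more genes.

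The clusters were spread unevenly over the genes. Of the 249 genes, 70 had no cluster in any list and 74 had none in the 6 SCAF IP lists. A further 75 had 1 to 5 clusters summed over those 6 lists, 63 had 6 to 20, 30 had 21 to 60, and 7 had 61 or more. A cluster was present in each of the 6 lists for 56 genes. The 10 genes with the most clusters held 805 of 2501 IP clusters, or 32.2%.

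By structure the 249 genes differed from other genes in the way their family is known for. Their median number of exons was 4, their median last exon was 3426 nt long (quartiles 2332 and 4917), and a median of 87.3% of the coding sequence lay in it. In other protein-coding genes of chromosome 19 the median last exon was 761 nt and held 14.1% of the coding sequence. Coding sequence made up 37.5% of the last exon length of the 249 genes. For the comparison by position, 247 genes with more than 1 exon were divided into early exons, which are all exons but the last, introns, and the last exon of the longest protein-coding isoform by summed exon length.

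Early exons took a larger share of the clusters in each SCAF IP list than in its own input, but the difference did not pass the test after adjustment. Early exons held 30.3%, 28.2% and 33.4% of the clusters in the 3 SCAF4 IP lists and 19.2%, 30.3% and 24.2% in the SCAF8 IP lists. The matching inputs held 14.5%, 27.7% and 26.2% for FLAG-SCAF4 and 9.52%, 16.3% and 13.9% for FLAG-SCAF8. Every IP list was above its own input, although the ranges of the IP and input lists overlapped. The mean difference was 9.60 percentage points over lists (two-sided exact permutation test of 6 against 6 lists, p = 0.0260, adjusted p = 0.185). Paired by extract, 6 of 6 pairs were higher in the IP, by 9.60 ± 5.43 percentage points (exact two-sided sign-flip test, p = 0.0312, the smallest that 6 pairs allow, and adjusted p = 0.375 over 12 paired comparisons). The permutation test did not pass the threshold of 0.05 after adjustment. The paired test could not pass it, because most comparisons of its family rest on 3 pairs, so its adjusted p decides nothing. The control IP, without a tagged protein, had 25%, 43.5% and 61.1% in early exons, from 112, 23 and 18 clusters. Other genes had the same order of IP and input. In all other protein-coding genes the mean early exon share was 46.2% in the SCAF IP lists and 31.4% in own inputs. In ZNF genes of other chromosomes it was 37.6% and 21.3%. The higher early exon share in the IP is thus not particular to the genes studied here. Whether the size of the difference varied between gene sets was not tested.

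The long last exon held 28.4% ± 2.81 (SD, n = 6) of the clusters in the SCAF IP lists and 34.5% ± 7.95 in their inputs, and this difference did not pass the test (two-sided exact permutation test, p = 0.102, adjusted p = 0.185). For introns the values were 32.3% ± 3.52 and 36.1% ± 4.95 (two-sided exact permutation test, p = 0.145, adjusted p = 0.242). Without ZNF146, a single gene with many intron clusters in the inputs, the intron difference turned to 2.46 percentage points higher in the IP. None of the 20 comparisons between list groups had an adjusted p below 0.05, and 1 had a raw p below 0.05.

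Within a list, the 249 genes were compared with other genes, so that list length was the same on both sides. The last exon held 28.4% of clusters in the 249 genes and 18.6% in all other protein-coding genes, higher in 6 of 6 SCAF IP lists (exact two-sided sign-flip test, p = 0.0312, the smallest possible, adjusted p = 0.0703 over 18 comparisons). Early exons held 27.6% against 46.2%, lower in 6 of 6 lists with the same p. The last exon share of ZNF genes of other chromosomes, which share this gene structure, was 29%, and the 249 genes were above it in 3 of 6 lists (exact two-sided sign-flip test, p = 0.719). Their early exon share was 37.6%, above the 249 genes in 6 of 6 lists (exact two-sided sign-flip test, p = 0.0312, adjusted p = 0.0703).

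**Figure D2:**
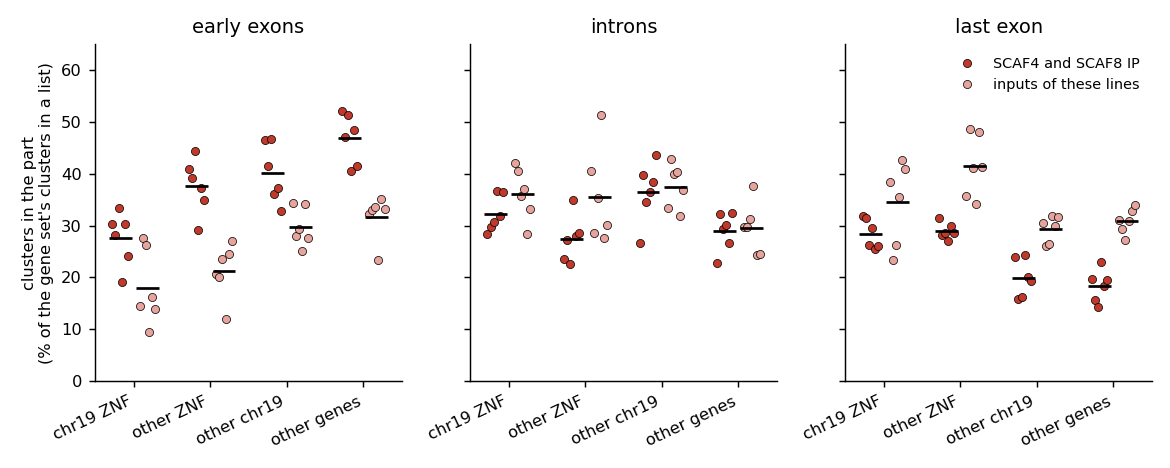
Percent of a gene set's clusters (y axis) in early exons, introns and the last exon, for the 6 SCAF IP lists and 6 own input lists, with a point for each list and a bar for the mean. In the IP lists the last exon share of the chromosome 19 ZNF genes (mean 28.4%) lies beside that of other ZNF genes (29%), and their early exon share (27.6%) lies below that of the other 3 gene sets.

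Shares depend on how long each part is, so the density of clusters was taken per 100 kb of exon and per 10000 clusters of the list. Per length the order was the opposite, with early exons far denser than the last exon. In the SCAF IP lists the early exons of the 249 genes had a density of 23.1 ± 3.69 and the last exon 3.88 ± 0.871 (SD, n = 6). The ratio of early to last exon density was 6.17 ± 1.39, with a lowest value of 4.09 and a highest of 7.99. It was 4.16 for ZNF genes of other chromosomes, 1.81 for other genes of chromosome 19 and 3.31 for the remaining genes. The 249 genes were higher than each of these sets in 6 of 6 lists (exact two-sided sign-flip test on log2 ratios, p = 0.0312 for each, adjusted p = 0.0402 over 18 comparisons). Early exon density alone was 1.74 times that of ZNF genes of other chromosomes, 1.70 times that of other genes of chromosome 19 and 1.89 times that of the remaining genes, by geometric mean and in 6 of 6 lists each. Last exon density was 0.496 times that of other genes of chromosome 19 (0 of 6 lists higher) and 1.01 times that of the remaining genes.

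The inputs showed the same order. There the early exons of the 249 genes had a density of 15.5 ± 3.04 and the last exon 5.55 ± 2.79, a ratio of 3.72 ± 2.47. The ratio was 1.64 for ZNF genes of other chromosomes and 0.888 for other genes of chromosome 19, below the 249 genes in 6 of 6 input lists. The comparison with other gene sets is thus not particular to the IP.

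Among the early exons, exon 3 was the densest in both IPs. Summed over the SCAF4 IP lists, exon 1 had 1.17 clusters per kb, exon 2 had 2.54, exon 3 had 3.95 and later early exons had 2.46. The SCAF8 IP gave 1.29, 2.47, 3.55 and 2.14 in the same order. Coding sequence held 63.1% of the early exon clusters in the SCAF4 IP and 63.6% in the SCAF8 IP.

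The letters that end the KRAB A box marked 95 early exons in 94 of the 249 genes. These exons had a median length of 127 nt, and 82 of them were exactly that long. The density in them was 82.2, 64.6 and 80.4 in the SCAF4 IP lists and 83.7, 132 and 90.3 in the SCAF8 IP lists, per 100 kb and 10000 clusters. The highest value, from SCAF8 IP replicate 2, rested on 31 clusters. The mean of 88.9 ± 22.9 (SD, n = 6) compared with 17.0 ± 3.40 in the exons before it in the same genes, 12.3 ± 9.76 in the next early exon and 3.25 ± 0.649 in the last exon. The KRAB A exon was above each of these in 6 of 6 lists, with no overlap (exact two-sided sign-flip test, p = 0.0312 for each, adjusted p = 0.0312 over 8 comparisons). The letters had been chosen from sequences of sites in these same IP lists. The test is thus not independent of that choice.

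The inputs also had their densest clusters in this exon. The density was 19.99, 45.8 and 81.4 in the FLAG-SCAF4 inputs and 51.2, 82.9 and 86.7 in the FLAG-SCAF8 inputs, on 38 clusters in all, against 10.2 ± 3.69 in the exons before it. The IP was above its own input in 5 of 6 pairs, by 27.6 ± 25.2, and this did not pass the test (exact two-sided sign-flip test, p = 0.0625, adjusted p = 0.0938 over 3 comparisons). The parental input had 28.4 ± 10.4 (9 clusters, n = 3). The control IP had 72.9, 135 and 241, on 9, 4 and 5 clusters, a range that reached above the highest SCAF IP list although no tagged protein was present. No list had more than 1 cluster in any of these exons, so the density can fall as a list grows longer. The value of 241 came from the shortest list, and the lowest SCAF IP value, 64.6, from the longest. Densities of lists of unlike length are thus not on the same scale, and the effect of length was not tested. The part of background IP in the SCAF IP values was not tested.

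**Figure D3:**
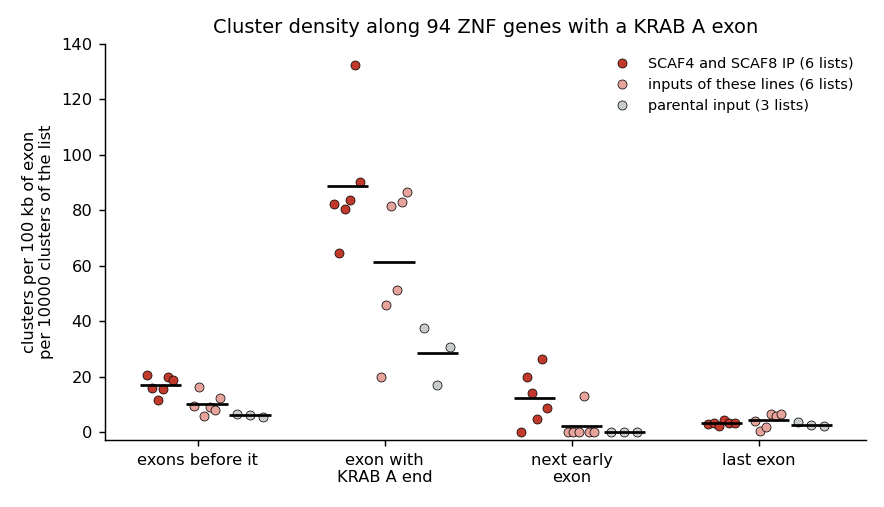
Clusters per 100 kb of exon and per 10000 clusters of the list (y axis) in the KRAB A exon of 94 zinc finger genes of chromosome 19, in the early exons before and after it, and in the last exon, with a point for each list and a bar for the mean. In all 6 SCAF IP lists the KRAB A exon, at 64.6 to 132, lies above the other exons of the same genes.

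Within the ZNF genes, exons of the same size without these letters were less dense, and this order did not hold in the other genes of chromosome 19. Internal coding early exons of 107 to 147 nt were compared across gene sets. In the SCAF IP lists, 86 such exons with the letters in the 249 genes had a density of 95.7 ± 24.6, and 142 without the letters had 40.5 ± 9.60, lower in 6 of 6 lists (exact two-sided sign-flip test, p = 0.0312, adjusted p = 0.0398 over 14 comparisons). In ZNF genes of other chromosomes, 44 exons with the letters had 48.2 ± 16.7, and 280 without had 19.4 ± 5.80. The chromosome 19 exons with the letters were above those of other chromosomes in 5 of 6 lists (exact two-sided sign-flip test, p = 0.0625, adjusted p = 0.0673). In other genes of chromosome 19, 13 exons with the letters had 5.87 ± 9.98, on 2 clusters, and 2300 without had 21.3 ± 3.30. In the remaining genes, 42 exons with the letters had 19.6 ± 10.96 and 43366 without had 15.4 ± 2.14, values whose difference was not tested. In own inputs the exons with the letters had 70.5 ± 30.1 in the 249 genes and those without had 37.9 ± 11.6, higher in 4 of 6 lists (exact two-sided sign-flip test, p = 0.125). As the letters came from sites of the IP lists, the IP tests of exons with the letters are not independent of that choice.

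Near-identical copies of this exon could share reads. A median of 17.3% of the 30-mers of a KRAB A exon occurred elsewhere on chromosome 19, and 23 of the 95 exons had no repeated 30-mer. In those 23 exons the IP density was 86.8 ± 14.8, above the exons before the KRAB A exon in all 94 genes in 6 of 6 lists (exact two-sided sign-flip test, p = 0.0312). The input density in the 23 exons was 23.7 ± 36.8 on 4 clusters, above those exons of all 94 genes in 2 of 6 lists (exact two-sided sign-flip test, p = 0.5). The genes thus differ between the sides, and the choice of letters from these IP lists limits the IP test too. The 72 exons with a repeated 30-mer had 89.5 ± 25.8 in the IP and 72.4 ± 28.3 in the inputs. How the single alignment kept per read was chosen among copies was not tested.

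Not every KRAB A exon carried a cluster. A cluster midpoint was present in all 6 SCAF IP lists in 11 exons, in 2 to 5 lists in 35, in 1 list in 15, and in none in 34. The 11 were those of ZNF559, ZNF426, ZNF45, ZNF224, ZNF225, ZNF226, ZNF235, ZNF331, ZNF773, ZNF776 and ZNF256. ZNF224, a KRAB repressor of the aldolase A gene, and ZNF776 also had a cluster there in 8 of 9 inputs and in all 3 control IP lists. ZNF226 had one in 7 of 9 inputs and in all 3 control IP lists. ZNF225, ZNF235 and ZNF773, whose exons are printed above, had none in any input, and ZNF225 had one in 1 control IP list. ZNF256, in which no 30-mer of the exon was repeated, had one in 1 input. In the exons of ZNF225, ZNF235 and ZNF773, 23.5%, 25.5% and 76.2% of the 30-mers occurred elsewhere on chromosome 19. The letters of ZNF225, ZNF235 and ZNF773 were under clusters of 5, 6 and 3 SCAF IP lists. Counted over the letters themselves, 96 occurrences lay in early exons, and 49 of these were under clusters of at least 2 of 6 IP lists, 38 of them under no input cluster. Of 12 other occurrences in introns, last exons or outside the isoform, 1 was under clusters of at least 2 IP lists, the ZNF607 site shown above.

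Within the last exon, clusters were densest at its start and thinned toward its end. In the SCAF IP lists the density was 8.72 ± 2.31 in the first 250 nt, 6.18 ± 1.92 from 250 to 500 nt and 3.97 ± 1.10 from 1000 to 1500 nt. It was 2.45 ± 0.709 from 3000 to 5000 nt and 0.577 ± 0.771 beyond, per 100 kb and 10000 clusters, where 13 clusters remained. Own inputs started alike, at 8.16 ± 3.98 in the first 250 nt, but stood at 5.65 ± 4.06 from 3000 to 5000 nt. The last exon holds the fingers near its start and a long 3′UTR behind them. In the IP lists 54.7%, 60.8% and 55.3% of last exon clusters (SCAF4) and 42.9%, 48.6% and 43.4% (SCAF8) were in coding sequence, above the 37.5% of its length that is coding in 6 of 6 lists (mean 50.9% ± 7.18, exact two-sided sign-flip test, p = 0.0312). In own inputs the mean was 27.4% ± 11.4, above the coding length in 1 of 6 lists (exact two-sided sign-flip test, p = 0.0625). The control IP had 49.5% ± 0.780 in coding sequence, from 37, 6 and 2 last exon clusters.

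The finger linker was not more frequent under clusters than in the coding sequence at large. The linker letters in capitals in the ZNF223 site above, searched on the transcribed strand with the third codon positions free, were in 1201 of 3446 windows of 100 nt that tile the coding part of the last exons, or 34.9%. In windows of 100 nt around cluster midpoints it was in 20.9 to 32.4% over the 6 SCAF IP lists, from 31 to 102 windows a list. In 16 of 69 windows around merged sites, 23.2%, it was present.

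In introns the density was lower still. In the SCAF IP lists the first intron had 1.19 ± 0.410 clusters per 100 kb and 10000 clusters, and later introns had 0.719 ± 0.259. Of 370 clusters in first introns, 178 (48.1%) lay within 1 kb of the 5′ splice site, and of 438 in later introns 119 did (27.2%). In own inputs 38.0% of first intron clusters lay within 1 kb of the splice site.

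Merging overlapping clusters gave 529 sites with support from 2 or more SCAF IP lists, in 137 of the 249 genes. Early exons held 143 of them, the last exon 139 (75 coding), first introns 87, later introns 97 and stretches outside the chosen isoform 60. Sites in early exons were the least often shared with an input, with 98 of 143 (68.5%) overlapping no input cluster, against 47 of 139 (33.8%) in the last exon. In first introns 42 of 87 (48.3%) overlapped none, in later introns 51 of 97 (52.6%), and among all sites 264 of 529. The same shares in other genes were not counted. Of the 529, 352 overlapped clusters of at most 1 of 9 inputs. When genes that reached a density of 1 merged input region per 10 kb were also left out, after the study's filter, 200 sites remained, and 186 of these overlapped no control IP cluster. That density of input regions was reached by 36 of the 249 genes. In the last step 79 of 186 sites lay in early exons and 35 in last exons. At least 2 of 3 lists of both IPs supported 182 sites, and 78 sites were found in all 6 IP lists.

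Of the 78 sites in all 6 lists, 11 overlapped no input cluster. Early exons held 6 of them, in ZNF529, ZNF45, ZNF225, ZNF235, ZNF614 and ZNF773. The ZNF45 site lay in exon 1 (chr19:43934883-43935192, minus strand) and the ZNF614 site in exon 2 (chr19:52025650-52025915, minus strand), both noncoding. The other 5 lay in introns of ZNF420, ZNF569 and ZNF224, outside the chosen isoform of ZNF404, and in the 3′UTR of ZNF607. Among last exons, the 5 sites in all 6 lists with the fewest inputs were those of ZNF607 (no input), ZNF576, ZNF223, ZNF550 and ZNF8 (2 inputs each). The ZNF576 site (chr19:43599024-43599388, plus strand) and the ZNF8 site (chr19:58295039-58295559, plus strand) were coding, and the ZNF550 site (chr19:57543013-57543255, minus strand) was in the 3′UTR.

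ZNF146, also known as OZF and made of zinc fingers without a KRAB domain, had the most clusters of the 249 genes and was lower in the IPs than in the inputs. Its level was 8.43, 5.51 and 6.48 clusters per 10000 in the SCAF4 IP lists and 10.7, 13.7 and 8.92 in the SCAF8 IP lists. The inputs stood at 17.1, 25.4 and 27.1 for FLAG-SCAF4, at 25.2, 20.3 and 24.4 for FLAG-SCAF8 and at 25.6, 26.3 and 17.7 for the parental line. Input and IP did not overlap in either line, and the IP was lower in 6 of 6 pairs, at 0.385 times the input mean. ZNF146 was among the genes named for the most input clusters, and the input lists were shorter than the IP lists. Both limit this comparison, as set out below. Of its 157 IP clusters 85 lay in the first intron and 44 in the last exon. It made up 5.06 to 9.12% of the clusters of the 249 genes in the IP lists and 11.1 to 31.0% in own inputs.

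ZNF544, ZNF587B, ZNF587 and ZNF227 were also lower in the IP in 6 of 6 pairs, at 0.616, 0.560, 0.587 and 0.488 times the input mean. ZNF146, ZNF544, ZNF587B and ZNF587 were among the 5 genes named for the most input clusters, a choice that favours a lower IP level. The input lists were also shorter than the IP lists, and the share of all genes lower in 6 of 6 pairs was not counted. ZNF587 is one of a pair of near-identical KRAB genes known to silence endogenous retroviruses, so its reads and those of its copies may be mixed. ZNF227 stood at 2.11, 2.94 and 2.65 in the SCAF4 IP lists against 4.27, 7.82 and 6.26 in their inputs, with no overlap. Conversely ZNF274, the KRAB protein that recruits SETDB1 to the 3′ ends of ZNF genes, was higher in the IP in 6 of 6 pairs. It stood at 0.527, 2.02 and 0.883 in the SCAF4 IP lists with no cluster in their inputs, and at 2.38, 3.28 and 2.89 in the SCAF8 IP lists against 0, 1.93 and 2.22 in their inputs. These levels rest on 1, 11 and 3 clusters in the SCAF4 IP lists, 6, 6 and 12 in the SCAF8 IP lists and 0, 2 and 2 in the SCAF8 inputs. A gene with so few clusters may have none in the shorter input lists. Of the 39 IP clusters of ZNF274, 19 lay in later introns, 9 in early exons and 8 in the last exon.

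ZNF875 had 110 IP clusters, 61 of them in later introns, and its level in the IP (5.97 ± 1.52) and the inputs (6.45 ± 4.77) overlapped. ZNF586 had 76, of which 60 lay outside the chosen isoform, and ZNF536, a repressor of neuronal genes without a KRAB domain, had 61, of which 37 did. ZNF529 had 61 IP clusters, 22 of them outside the isoform and 14 in later introns. ZNF507 stood out for early exons, with 28 of 56 IP clusters there against 8 of 21 input clusters. ZNF331, an imprinted KRAB gene, had 17 of 33 IP clusters in early exons, against 6 of 7 input clusters. Its mean level in the control IP (5.97 ± 2.77) was above that in the SCAF IP lists (1.87 ± 0.560). The control IP level rests on 3, 2 and 1 clusters in replicates 1, 2 and 3, and in replicate 3 that 1 cluster gave 6.17. A level from so few clusters is imprecise, and this difference was not tested. Last exon clusters led in ZNF460 (34 of 46), ZNF551 (27 of 48), ZNF226 (25 of 44), ZNF227 (23 of 59) and ZNF780B (20 of 40), and ZNF8 had 20 of 51 there and 22 in the first intron.

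Genes known for silencing retrotransposons differed widely in their clusters. ZNF587, named above, had 60 clusters in the 6 IP lists. ZNF91 had 7 clusters in the 6 IP lists, 6 of them in the SCAF4 IP, and 1 in the 9 inputs. ZNF93 and ZNF676 had none in any of the 18 lists. ZNF850 had 35 IP clusters, 17 of them in the last exon, and 8 in the inputs.

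**Figure D4:**
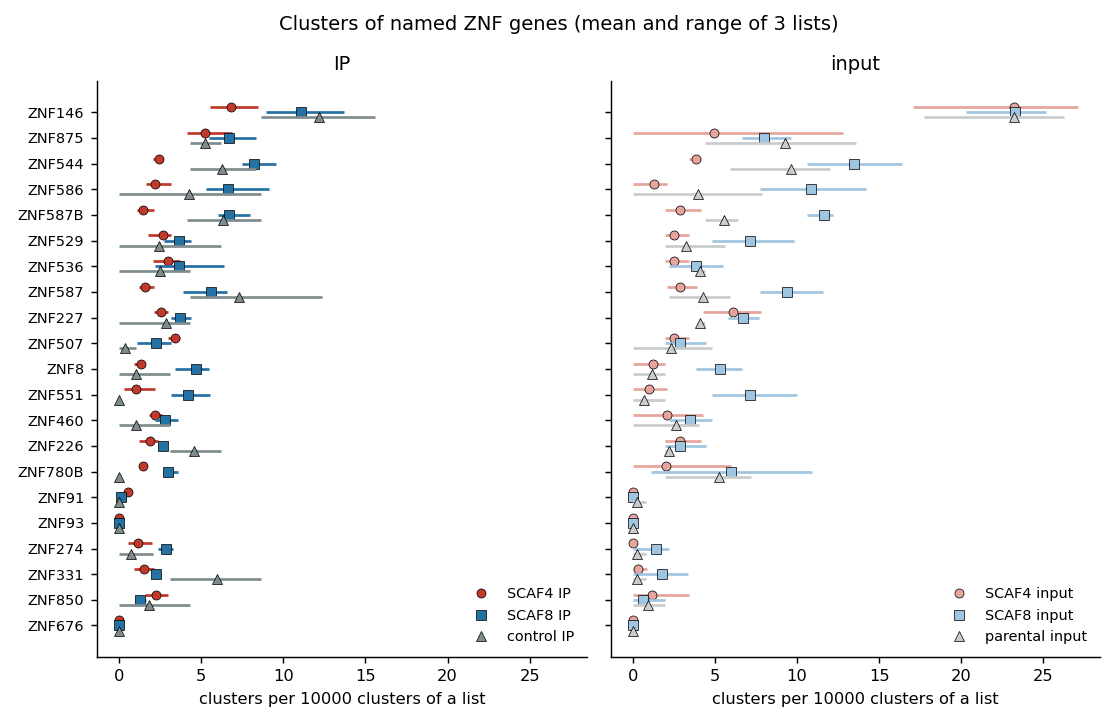
Clusters per 10000 clusters of a list (x axis) for 21 named zinc finger genes of chromosome 19 in the 3 IP groups (left) and the 3 input groups (right), with the mean of 3 lists as a symbol and their range as a line. ZNF146 lies near 23 in all 3 input groups and near 7, 11 and 12 in the IP groups, and ZNF93 and ZNF676 are at 0 throughout.

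The higher share of the FLAG-SCAF8 line lay mainly in a single stretch near the end of the long arm, which held 50.5 of the 73.3 clusters per 10000 by which the FLAG-SCAF8 line exceeded the FLAG-SCAF4 line. Genes with gaps of at most 1 Mb were joined into 16 runs, of which 9 held at least 5 genes. The run from ZNF628 to ZNF446, at chr19:55476617-58481230, held 59 of the 249 genes. Its level was 69.5, 63.4 and 59.5 clusters per 10000 in the SCAF8 IP lists and 22.1, 27.6 and 20.3 in the SCAF4 IP lists. The inputs stood at 83.1, 75.3 and 85.5 for FLAG-SCAF8, at 23.0, 21.5 and 18.8 for FLAG-SCAF4 and at 39.2, 21.9 and 41.3 for the parental line. IP and input averaged, the FLAG-SCAF8 line (72.7 ± 3.47, n = 3 replicates) was 3.27 times the FLAG-SCAF4 line (22.2 ± 2.52) and 2.04 times the parental line (35.6 ± 6.36), with no overlap between lists of the FLAG-SCAF8 and other lines (two-sided exact permutation test, p = 0.1 for each, the smallest possible, adjusted p = 0.25 over 30 comparisons).

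Other genes of the same stretch had the same order in the IP lists of the tagged lines, with 25.5 per 10000 in the SCAF8 IP, 11.1 in the SCAF4 IP and 23.7 in the control IP. Mean levels of other runs differed between the lines in both directions, mostly with overlapping lists. The run from ZNF557 to ZNF846, with 16 genes, stood at 7.11 ± 1.28 in the FLAG-SCAF8 line and 2.45 ± 0.281 in the FLAG-SCAF4 line, 2.91 times as high and with no overlap between lists (exact two-sided permutation test, p = 0.1, adjusted p = 0.25). The run from ZNF653 to ZNF791, with 26 genes, stood at 2.57 ± 0.916, 1.29 ± 1.02 and 0.440 ± 0.762 in the FLAG-SCAF8, FLAG-SCAF4 and parental lines, with overlapping lists. The 40 genes from ZNF175 to ZNF331 had 6.49 ± 2.51 in the FLAG-SCAF8 line and 3.20 ± 0.598 in the FLAG-SCAF4 line, also with overlapping lists. The run from ZNF565 to ZNF573, with 26 genes, stood at 46.8 ± 6.35 in the FLAG-SCAF8 line and 37.3 ± 5.20 in the FLAG-SCAF4 line. The run from ZNF575 to ZNF296, with 24 genes, stood at 23.3 ± 1.88 and 20.03 ± 0.578. In both of these runs the lists overlapped. The 37 genes from ZNF101 to ZNF254 had 2.27 ± 0.527 in the FLAG-SCAF8 line and 4.44 ± 1.52 in the FLAG-SCAF4 line, the opposite order, again with overlapping lists. IP and input of a line had the same order here, and binding, expression, copy number and the cells from which a line was derived cannot be told apart.

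**Figure D5:**
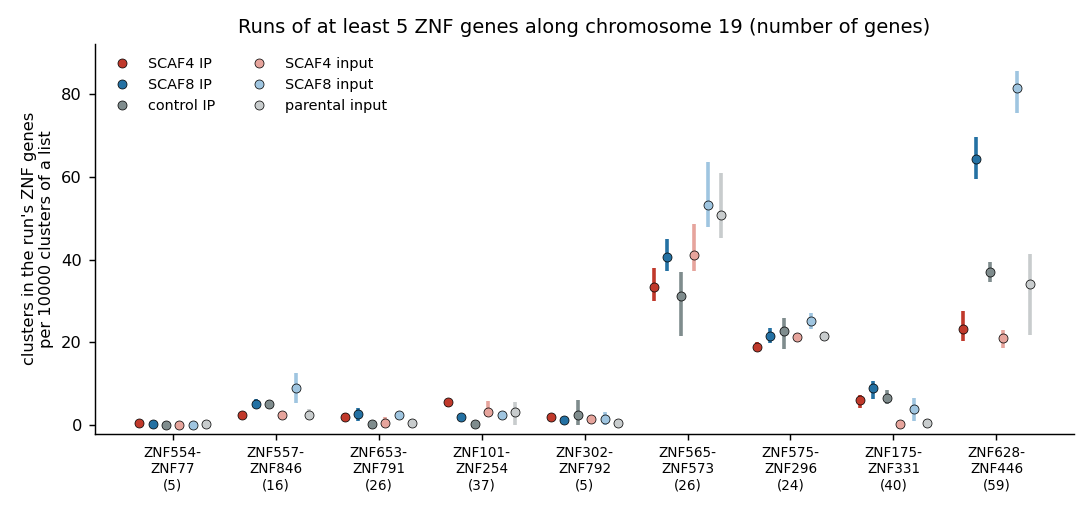
Clusters in the zinc finger genes of a run per 10000 clusters of a list (y axis) for the 9 runs of at least 5 genes in their order along chromosome 19, with the mean of 3 lists as a point and their range as a line. In the last run, ZNF628 to ZNF446, the SCAF8 IP lists (59.5 to 69.5) and SCAF8 input lists (75.3 to 85.5) lie above the lists of the other lines.

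Gene by gene, 27 of the 249 genes were higher in every SCAF8 IP list than in every SCAF4 IP list (10.8%, against 2.17% of all protein-coding genes and 4.81% of other genes of chromosome 19), and 17 of these lay in the ZNF628 to ZNF446 run. The reverse held for 5 genes (ZNF43, ZNF726, ZNF233, ZNF888 and ZNF324), or 2.01% against 3.8% of all genes and 1.96% of other genes of chromosome 19. In the inputs 15 genes were higher in every SCAF8 list (6.02%, against 1.48% of all genes and 2.04% of other genes of chromosome 19), 9 of them in this run. None was higher in every SCAF4 input list (against 0.743% of all genes). ZNF121, ZNF580, ZNF581, ZNF551, ZNF586, ZNF587B, ZNF587, ZNF544 and ZNF8 were higher in the FLAG-SCAF8 line in both. ZNF580 and ZNF581 overlap on the plus strand, so clusters in both are counted for each. ZNF544, for example, stood at 9.53, 7.66 and 7.47 in the SCAF8 IP lists and at 2.63, 2.57 and 2.06 in the SCAF4 IP lists, and its inputs at 16.4, 10.6 and 13.3 against 3.41, 3.91 and 4.17.

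The genes through which KRAB zinc finger proteins act nearly all carried clusters in the IP lists. Of a list of 18 cofactor genes, which includes TRIM28, SETDB1, the HP1 genes CBX1, CBX3 and CBX5 and the HUSH complex genes TASOR, MPHOSPH8 and PPHLN1, 18 had a cluster in at least 2 of 3 SCAF4 IP lists, where 36.5% of all protein-coding genes did, and 17 in at least 2 of 3 SCAF8 IP lists, where 31.4% did. The exception was MPHOSPH8, with a cluster in no SCAF8 IP list. In the inputs 8 (FLAG-SCAF4, against 11.2% of all genes), 13 (FLAG-SCAF8, 15.3%) and 11 (parental, 10.7%) passed, and 8 did in the control IP (6.45%). TRIM28, DNMT1 and UHRF1 had a cluster in each of the 18 lists.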

How the data were processed

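PAR-CLIP clusters of 18 lists were analysed, 3 each for IP and input of the FLAG-SCAF4, FLAG-SCAF8 and parental lines. Per the labels and methods, the authors demultiplexed reads with bcl2fastq 1.8, trimmed them with cutadapt through Trim Galore, aligned them to GRCh38 with Bowtie2 2.2.9 keeping 1 alignment per read, removed duplicates with Picard, merged the soluble and chromatin libraries of a replicate, and ran PARalyzer to call clusters. Replicate 1 was sequenced with longer reads than the others. The deposited score of a cluster has no name, lies between 0.501 and 1, and was used only for an alternative at or above the median score of a list. The lists precede the study's filters on inputs and control IP and hold no reads, so the caller's limits on reads and on T→C changes were not rechecked.

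Cluster midpoints were assigned on the same strand to the bodies of GENCODE 44 protein-coding genes, and to the shortest gene where several overlapped. The protein-coding isoform with the largest summed exon length gave exons, introns and coding sequence. Sites merged clusters that overlapped by at least 1 nt. Groups were taken from the sample labels. Lists were compared by two-sided exact permutation tests, with Benjamini-Hochberg adjustment within a family of comparisons and a threshold of 0.05. Inputs were taken from the same extract before the IP, per the labels, so replicate numbers pair IP with input of a line, and exact sign-flip tests used these pairs. Over 3476 genes, deviations of same-numbered IP and input lists from their group means correlated at 0.0193 to 0.411 across the 9 pairs. Sign-flip tests over 6 lists pool both tagged lines. P-values measure the spread between these lists, and the labels do not say whether replicates came from separate cultures.

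The members, the cofactor list and the tests were chosen with earlier results of these data known. Named genes were the 15 with the most clusters over the SCAF4 and SCAF8 IP lists, the 5 with the most over the 9 inputs, the 5 last exon sites in most of these IP lists with fewest inputs, and ZNF91, ZNF93, ZNF274, ZNF331, ZNF146, ZNF850 and ZNF676. Genes beyond that rule, the KRAB A letters and the runs were chosen after values had been seen. Alternatives were the median score, other isoforms and gene assignments, other denominators and site rules, replicates left out, and the replicate block. The work used matplotlib 3.10.9, scipy 1.17.1, pandas 2.3.3, numpy 2.4.6 and Python 3.11.15, and was tested on simulated data. Protein sequences were not used here.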

Additional observations from a re-analysis of the deposited data

How the results depend on the processing

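Of 338 alternatives computed for 39 results, 288 left a result on its side of the threshold or within its margin. Comparisons of 3 against 3 lists allow no p below 0.1, so their alternatives could not cross the threshold. They could only keep or reverse a sign, and the 288 include such alternatives. With the replicate block, which pairs each IP with its own input, the early exon difference between SCAF IP lists and own inputs was 9.60 percentage points in 6 of 6 pairs (exact two-sided sign-flip test, p = 0.0312, adjusted p = 0.375), and the block changed no call after adjustment. Differences near 0 changed sign. The share of clusters in the 249 genes in SCAF4 IP minus SCAF4 input was -0.199 percentage points at or above the median score, -0.0259 with clusters in protein-coding genes as the denominator, and -0.0224 to 0.123 when a replicate was left out. ZNF146 was left out as an alternative chosen after the data had been seen. Without it the last exon difference in SCAF4 IP minus input was -3.63, the intron difference was 2.46 for SCAF IP lists minus own inputs and 0.763 for SCAF4 IP minus input, and the last exon difference between the 249 genes and other genes in own inputs was 6.06 with a raw p of 0.0312 (exact two-sided sign-flip test).

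Leaving out a replicate moved the last exon difference in SCAF4 IP minus input between -3.22 and 4.04, that in SCAF IP lists minus control IP between -0.0130 and 8.73, and that between the 249 and other genes in the control IP between -3.40 and 1.44. In the SCAF IP lists the latter ranged from 9.08 to 10.2 and the excess of coding sequence in the last exon from 11.5 to 14.5, and the excess of the KRAB A exon over earlier exons from 67.5 to 75.4 (39.2 to 63.5 in own inputs). With 4 lists left, the smallest p of the sign-flip test is 0.125, so these cannot pass. Counts of genes with clusters depended on list length. Requiring all 3 lists gave 74 genes for SCAF8 IP (29.7%, against 20.9% of all protein-coding genes) and 9 for control IP (3.61% against 2.63%). It gave 15 for SCAF4 input (6.02% against 6.53%), 35 for SCAF8 input (14.1% against 9.24%) and 18 for parental input (7.23% against 5.98%). At or above the median score, 14 remained for control IP and 17 for SCAF4 input. Without a replicate, 75 to 101 passed for SCAF8 IP, 9 to 18 for control IP, 16 to 23 for SCAF4 input and 18 to 26 for parental input. At the median score and without a replicate, the shares of all genes were not counted. Merged sites numbered 327 when 3 of 6 lists were required and 336 to 445 without a replicate. The number of clusters, and in the control IP the 18 to 112 in these genes, limits the precision.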

Other observations

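Clusters on the opposite strand of the 249 genes made up a mean of 0.0467% of the SCAF4 IP lists, 0.0937% of the SCAF8 IP lists and 0.0352% of the control IP lists. The inputs had 0.0538% (FLAG-SCAF4), 0.142% (FLAG-SCAF8) and 0.112% (parental).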
